A study of Rattus norvegicus with 5 samples.

Results

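The subunits of the AMPA and NMDA receptors, the principal ion channels of fast excitatory transmission, were followed across the cell classes of the rat ventral tegmental area (VTA). They were chosen by gene name, with earlier results of these data known: the 4 AMPA receptor subunits *Gria1*, *Gria2*, *Gria3* and *Gria4*, and the 6 NMDA receptor subunits *Grin1*, *Grin2a*, *Grin2b*, *Grin2c*, *Grin2d* and *Grin3a*. These 10 genes are among 32883 genes in the files. All 10 were detected and entered every test of levels under the main settings, while some alternative settings left 1 of them untested. The snRNA-seq libraries came from 5 adult male Sprague-Dawley rats, 1 library per rat, made from bilateral VTA punches that were pooled within a rat. The paper calls these rats drug-naïve, whereas the labels give saline as their treatment. There was no other group, so every comparison was between classes of nuclei of the same rats.

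AMPA receptors are tetramers of GluA1 to GluA4, the products of *Gria1* to *Gria4*, and open within a millisecond of glutamate release. GluA2 is the subunit whose edited pore makes the channel nearly impermeable to calcium, so receptors without it pass calcium. NMDA receptors combine the obligatory GluN1 (*Grin1*) with GluN2A to GluN2D (*Grin2a* to *Grin2d*) or GluN3A (*Grin3a*), and the GluN2 subunit sets how long the channel stays open, while GluN3A lowers calcium flow and magnesium block. In the VTA these receptors drive the burst firing of dopamine neurons, and the ratio of AMPA to NMDA current in those neurons is a classical readout of drug exposure. Oligodendrocyte precursor cells (OPCs) also receive glutamate synapses and carry both kinds of receptor.

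The promoters of *Gria4* and *Grin3a* are shown because these were the members that were lower in dopaminergic-like neurons than in both other neuron classes and higher in OPC-like nuclei than in the other glia tested. Each line gives the 250 bases before the RefSeq transcription start on the minus strand, from build GRCr8, at chr8:10319882-10320131 for *Gria4* and chr5:69001559-69001808 for *Grin3a*. Capitals mark CAGCTG, a palindrome and thus the same on either strand, which was searched after these sequences had been seen.
Gria4: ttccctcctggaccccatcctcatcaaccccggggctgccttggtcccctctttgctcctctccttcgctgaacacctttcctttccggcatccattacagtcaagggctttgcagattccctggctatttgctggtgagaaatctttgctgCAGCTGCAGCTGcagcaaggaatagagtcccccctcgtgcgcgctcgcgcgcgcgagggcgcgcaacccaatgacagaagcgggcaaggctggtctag
Grin3a: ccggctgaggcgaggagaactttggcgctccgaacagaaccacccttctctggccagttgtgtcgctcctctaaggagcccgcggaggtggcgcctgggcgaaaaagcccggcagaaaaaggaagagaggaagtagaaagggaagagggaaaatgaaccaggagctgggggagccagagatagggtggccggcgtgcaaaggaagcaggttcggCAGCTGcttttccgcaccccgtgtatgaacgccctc
*Gria4* held 2 matches, which lie side by side without overlap, and *Grin3a* held 1. The same letters were found in 4007 of 33469 rat promoters of this length, or 12%. The reference table held 5 of the 10 members, and the entries of *Grin1*, *Grin2c* and *Grin2d* held no match. A match of letters is a description and not a binding site.

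Of the barcodes, 22084 had at least 1000 UMIs (unique molecular identifiers, 1 per captured RNA molecule), over 200 and under 5000 genes and under 5% mitochondrial UMIs. Between 1813 and 9336 came from each rat, from libraries of 10193355 to 88576210 UMIs. They were clustered without the members and without the other glutamate receptor genes, and clusters were named from marker lists. This gave 914 dopaminergic-like, 1919 GABA-like and 714 glutamate-like neurons, 705 OPC-like, 789 astrocyte-like, 281 microglia-like and 8608 oligodendrocyte-like nuclei. Another 2019 nuclei were neurons without a class and 777 were mixed, and both were left out. Of the 2019, 1166 came from rat 3, whose named neurons number 709. Their own markers were present in each of these classes, except that the OPC marker *Neu4* had 0 UMIs in every class. The 8 dopaminergic markers summed to 28.9 to 37.2 UMIs per 10000 in dopaminergic-like neurons of the rats, against at most 5.11 in GABA-like and glutamate-like neurons.

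Rat 3 stood apart. Its GABA-like neurons had a median depth of 1646 UMIs, the other rats' medians being 6718 to 9701, and 97.6% of them, with 99.1% of its dopaminergic-like and 83.6% of its glutamate-like neurons, lay in sub-clusters of their own. Rat 3 gave no OPC-like or microglia-like nucleus and 1 astrocyte-like nucleus. Rat 1 gave only 3 dopaminergic-like neurons, and a class needed 20 nuclei in a rat to be used. Values for dopaminergic-like neurons therefore rest on rats 2 to 5, those for OPC-like, astrocyte-like and microglia-like nuclei on rats 1, 2, 4 and 5, and those for the other classes on all 5 rats. From the lists of markers that a class should lack, free RNA made up at most 3.002% to 13.5% of the UMIs of the neuron classes, 10.6% to 17.2% in OPC-like, 9.96% to 28.3% in astrocyte-like, 8.58% to 23.9% in oligodendrocyte-like and 14.4% to 40.9% in microglia-like nuclei of a rat. In rats 1 and 2, 1085 and 2224 barcodes resembled free RNA and were left out. Between 10 and 36 barcodes of a library also occurred in another library.

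Counts were summed per rat and class, since nuclei of a rat are not replicates. A level below is the number of UMIs of a gene per 10000 UMIs of its class in a rat, and errors are SDs over rats unless an SE is named. UMI counts were not corrected for the length of a gene, so a level is compared between classes and never between genes. Log2 fold changes with their SE come from the quasi-likelihood test of edgeR with the rat as a block, and a change was called at a Benjamini-Hochberg adjusted p under 0.05 over all genes tested.

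**Figure D1:**
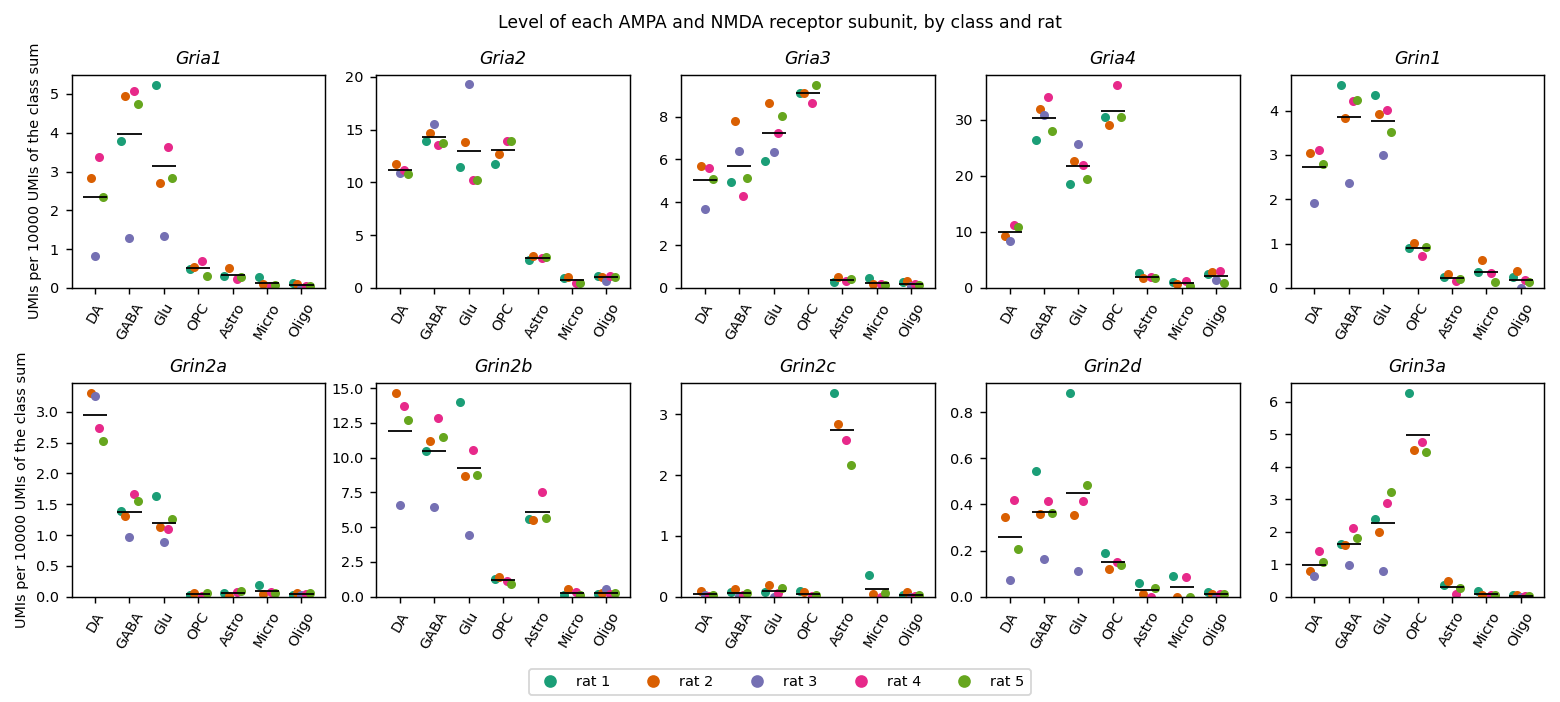
Level of each of the 10 subunits in UMIs per 10000 UMIs of a class (vertical axis of each panel, from 0) in the 7 classes (horizontal axis, DA stands for dopaminergic-like neurons), with 1 point per rat, coloured by rat, and a bar at the mean. *Gria4* is low in dopaminergic-like neurons, *Grin2a* is highest there, *Gria3* and *Grin3a* are highest in OPC-like nuclei and *Grin2c* stands out in astrocyte-like nuclei.

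Between neuron classes, dopaminergic-like neurons differed most. Against GABA-like neurons, 1 of the 10 members was higher (*Grin2a*) and 4 were lower (*Gria4*, *Grin3a*, *Gria1* and *Grin1*), while 21.2% of all 11310 genes tested were called, 12.1% higher and 9.15% lower. The median log2 fold change of the members was -0.32, beside 0.02 for all genes. Against glutamate-like neurons, 2 were higher (*Grin2a* and *Grin2b*) and 4 lower (*Grin2c*, *Grin3a*, *Gria4* and *Gria3*), beside 15.7% of all genes, 8.43% higher and 7.30% lower, and the members' median was -0.27 beside 0.02. GABA-like and glutamate-like neurons differed in 2 members, *Gria4*, which was higher in GABA-like neurons, and *Grin3a*, which was lower, beside 4.47% of all genes, 2.22% higher and 2.25% lower. With UMI totals in place of TMM factors, the share of calls that were higher over all genes moved from 56.9% to 45.1% against GABA-like neurons and from 53.6% to 40.8% against glutamate-like neurons, with each of the members' calls kept. These 3 comparisons share samples. Fitted without the rat as a block, the 3 comparisons called 2, 3 and 0 members in place of 5, 6 and 2, with 3, 3 and 1 at an unadjusted p under 0.05, while the share of all genes called fell to 7.32%, 5.23% and 0.663%.

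OPC-like nuclei and neurons differed in the levels of most subunits. Against all named neurons, 2 members were higher (*Grin3a* and *Gria3*) and 5 lower (*Grin2a*, *Grin2b*, *Gria1*, *Grin1* and *Grin2d*), beside 45.2% of all 11146 genes tested, 22.0% higher and 23.1% lower. Against OPC-like nuclei, astrocyte-like nuclei were higher in 2 members (*Grin2c* and *Grin2b*) and lower in 6, beside 36.6% of all genes, 18.2% higher and 18.5% lower. Oligodendrocyte-like nuclei were lower than OPC-like nuclei in 8 of the 10 members, beside 48.6% of all genes, 23.7% higher and 24.9% lower. The medians of the members were -1.12, -2.03 and -2.83 on the log2 scale, beside -0.01, 0.02 and 0.08 for all genes. UMI totals lowered the share of higher calls from 48.7% to 37.2% in the comparison of oligodendrocyte-like with OPC-like nuclei, and shifted the median of all genes by -0.17 there, again with the members' calls kept. Over the 6 comparisons, 36 of 60 member tests passed, 8 higher and 28 lower, and each of these calls held without rat 3.

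**Figure D2:**
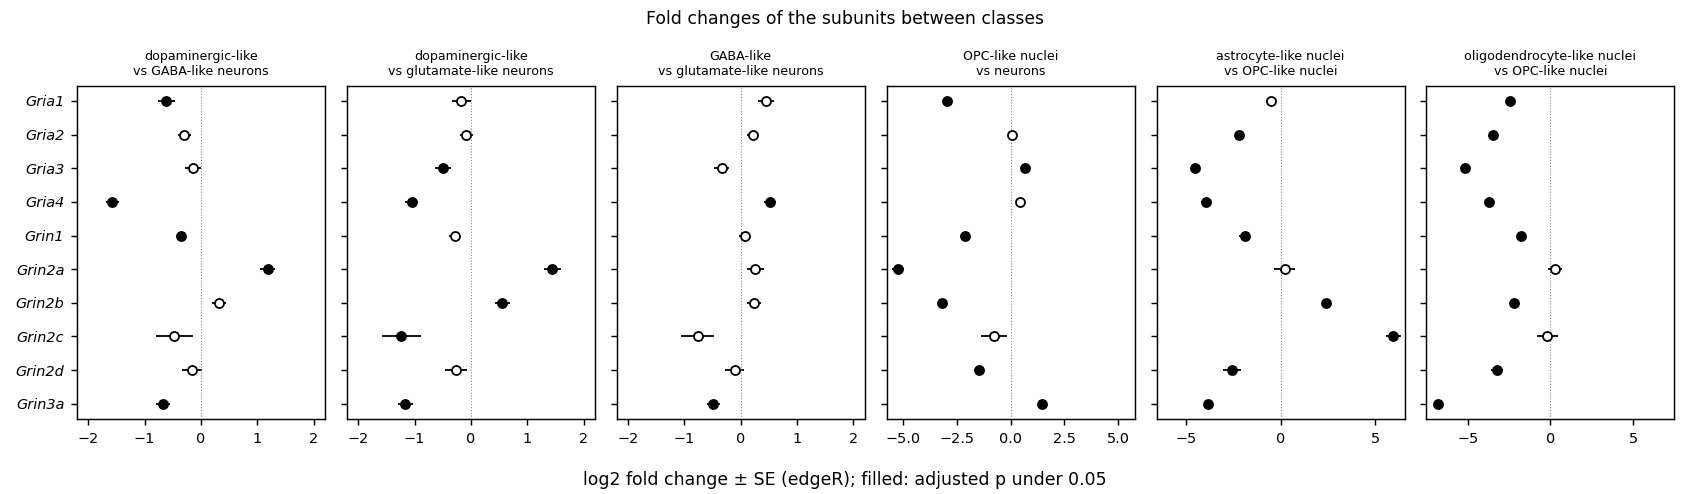
Log2 fold change of each subunit (horizontal axis, edgeR, bars are ± 1 SE) in the 6 comparisons of classes, 1 panel each, with filled points for an adjusted p under 0.05 and axis ranges that differ between panels. Dopaminergic-like neurons are at -1.57 for *Gria4* and 1.18 for *Grin2a* against GABA-like neurons, and the changes between OPC-like nuclei and neurons reach -5.24 for *Grin2a*.

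*Gria4* encodes GluA4, the subunit with the fastest kinetics. Its level in dopaminergic-like neurons was 9.33, 8.44, 11.2 and 10.9 in rats 2, 3, 4 and 5, against 26.4, 31.99, 31.0, 34.1 and 28.1 in GABA-like neurons of rats 1 to 5. In glutamate-like neurons it was 18.6, 22.8, 25.6, 22.0 and 19.5. The 3 classes did not overlap, and each of rats 2 to 5, which had all 3, had the order GABA-like, glutamate-like, dopaminergic-like. Dopaminergic-like neurons had a log2 fold change of -1.57 ± 0.11 (SE, adjusted p = 6.54e-09) against GABA-like neurons and -1.05 ± 0.11 (SE, adjusted p = 2.09e-06) against glutamate-like neurons. GABA-like exceeded glutamate-like neurons by 0.52 ± 0.10 (SE, adjusted p = 0.00423), a call that ended when each nucleus was typed by its own markers (0.40, adjusted p = 0.0806).

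The 6 neuron markers summed to 12.1 to 16.3 UMIs per 10000 in OPC-like nuclei of the rats, with none at 0. This was below the neuron classes, at 28.5 to 109. For a class as a whole the sum was 14.0 in OPC-like nuclei. It was lower in astrocyte-like (6.53), microglia-like (7.74) and oligodendrocyte-like nuclei (5.64). The part of neuron RNA in the OPC-like values was not tested. In OPC-like nuclei the level of *Gria4* was 30.4, 29.1, 36.3 and 30.5 in rats 1, 2, 4 and 5, of which rat 4 lay above the highest GABA-like value and the others within the range of the GABA-like neurons. Its difference from all named neurons, 0.44 ± 0.21 on the log2 scale, did not pass (adjusted p = 0.0917). Astrocyte-like nuclei, at 1.70 to 2.75, and oligodendrocyte-like nuclei, at 0.919 to 3.04, lay below OPC-like nuclei, with log2 fold changes of -3.95 ± 0.25 and -3.70 ± 0.23 (SE, adjusted p = 2.12e-13 and 3.60e-14). The barcodes with under 100 UMIs, which hold free RNA, had 3.56 to 7.09 UMIs of *Gria4* per 10000, above both of these classes.

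The share of nuclei with at least 1 *Gria4* UMI followed the levels. After thinning every nucleus to 1000 UMIs, at which no nucleus had to be left out, 88.1% of GABA-like, 80.3% of glutamate-like, 56.5% of dopaminergic-like and 89.8% of OPC-like nuclei had one (means over rats), against 98.2%, 98.1%, 88.3% and 99.2% before thinning. Oligodendrocyte-like nuclei, taken as background, gave 15.6% after thinning and 33.1% before. Their median depth was 2863 UMIs, against 6324, 7746, 6368 and 3584 in the 4 classes above, in the same order. In dopaminergic-like neurons the thinned share ran from 49.1% to 62.3% over rats, below the lowest GABA-like value of 84.1%.

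*Gria2* encodes GluA2, the subunit that blocks calcium entry. Its level in dopaminergic-like neurons was 11.7, 10.8, 11.2 and 10.8 in rats 2 to 5, and in OPC-like nuclei 11.7, 12.7, 13.9 and 14.0 in rats 1, 2, 4 and 5. GABA-like neurons ranged from 13.6 to 15.5 and glutamate-like neurons from 10.2 to 19.3, where rat 3 was the highest. No comparison among neurons and OPC-like nuclei passed, and the smallest adjusted p among them was 0.0872, for dopaminergic-like against GABA-like neurons (-0.30 ± 0.12, SE). That difference did pass under 6 alternatives, at -0.39 to -0.31, among them DESeq2 (adjusted p = 0.0236) and free RNA subtracted (adjusted p = 0.0462). OPC-like nuclei differed from neurons by 0.05 ± 0.14 on the log2 scale (SE, adjusted p = 0.819), a difference whose sign turned under several alternatives.

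Astrocyte-like nuclei held 2.66 to 3.002 *Gria2* UMIs per 10000 and oligodendrocyte-like nuclei 0.654 to 1.18, below OPC-like nuclei, with log2 fold changes of -2.17 ± 0.16 and -3.45 ± 0.15 (SE, adjusted p = 3.77e-12 and 3.31e-17). These classes did not overlap with each other. Free RNA held 3.53 to 5.20.

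*Gria1* encodes GluA1, the subunit inserted during synaptic potentiation. Its level was 2.83, 0.813, 3.37 and 2.35 in dopaminergic-like neurons of rats 2 to 5 and 3.78, 4.94, 1.29, 5.07 and 4.74 in GABA-like neurons of rats 1 to 5. Within each of the 4 rats with both classes the dopaminergic-like value was the lower, although the ranges overlap, since rat 3 was the lowest in both. This gave a log2 fold change of -0.62 ± 0.15 (SE, adjusted p = 0.0055). It no longer passed without rat 5 (-0.51, adjusted p = 0.0767) or with a minimum of 2000 UMIs per nucleus (-0.60, adjusted p = 0.0529). Glutamate-like neurons held 1.34 to 5.24 and differed from neither of the other neuron classes by the test. GABA-like neurons were, however, called higher than glutamate-like neurons without rat 1 (0.69, adjusted p = 0.00136), with no filter (0.48, adjusted p = 0.000962), with own markers (0.61, adjusted p = 0.00732), centred per library (0.57, adjusted p = 0.0124) and thinned (0.71, adjusted p = 0.0138).

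In OPC-like nuclei *Gria1* was at 0.5001, 0.541, 0.693 and 0.305 in rats 1, 2, 4 and 5, and in neurons of the 5 rats at 4.49, 3.99, 1.06, 4.09 and 3.86. No OPC-like value reached a neuron value, at a log2 fold change of -2.94 ± 0.19 (SE, adjusted p = 4.01e-13). Astrocyte-like nuclei, at 0.226 to 0.512, overlapped OPC-like nuclei and did not differ by the test (-0.52 ± 0.25, SE, adjusted p = 0.103), but were called lower without rat 2 (-0.89, adjusted p = 0.0284). Free RNA held 0.249 to 0.945, a range that covers most of these glial values.

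*Gria3* encodes GluA3. OPC-like nuclei held 9.10, 9.12, 8.61 and 9.49 UMIs per 10000 in rats 1, 2, 4 and 5. These lay above every value of the neuron classes, the closest by under 0.1 UMI per 10000, of which glutamate-like neurons held 5.93 to 8.61, GABA-like neurons 4.29 to 7.79 and dopaminergic-like neurons 3.68 to 5.68. The log2 fold change of OPC-like nuclei over neurons was 0.65 ± 0.14 (SE, adjusted p = 0.000392). Astrocyte-like nuclei, at 0.295 to 0.5003, and oligodendrocyte-like nuclei, at 0.103 to 0.318, lay below OPC-like nuclei, with log2 fold changes of -4.52 ± 0.19 and -5.17 ± 0.16 (SE, adjusted p = 4.26e-17 and 3.64e-20).

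Among neurons, *Gria3* was lower in dopaminergic-like than in glutamate-like neurons (log2 fold change -0.49 ± 0.14, SE, adjusted p = 0.0258). This call ended under 8 alternatives, more than any other call of a member, at -0.53 to -0.14. Without rat 1, rat 2 or rat 5 the adjusted p was 0.0567, 0.0520 and 0.114. The difference from GABA-like neurons did not pass (-0.15 ± 0.14, SE, adjusted p = 0.528).

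*Grin1* encodes GluN1, which every NMDA receptor needs. Its level was 3.05, 1.92, 3.11 and 2.81 in dopaminergic-like neurons of rats 2 to 5, 4.59, 3.83, 2.36, 4.21 and 4.25 in GABA-like and 4.35, 3.93, 3.01, 4.01 and 3.51 in glutamate-like neurons of rats 1 to 5. In each of rats 2 to 5 the dopaminergic-like value was the lowest of the 3. The log2 fold change was -0.35 ± 0.09 against GABA-like neurons (SE, adjusted p = 0.00941) and -0.29 ± 0.10 against glutamate-like neurons, which did not pass (adjusted p = 0.0571). The call against GABA-like neurons ended without rat 5 (-0.30, adjusted p = 0.105), with a minimum of 2000 UMIs (-0.27, adjusted p = 0.268) and after thinning (-0.33, adjusted p = 0.128). The difference from glutamate-like neurons passed with DESeq2 (-0.29, adjusted p = 0.0102), UMI totals (-0.38, adjusted p = 0.0117), own markers (-0.38, adjusted p = 0.0147), centring per library (-0.38, adjusted p = 0.0359) and without rat 3 (-0.30, adjusted p = 0.0464).

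OPC-like nuclei held 0.718 to 1.02 *Grin1* UMIs per 10000, below neurons (log2 fold change -2.13 ± 0.20, SE, adjusted p = 7.73e-10). Astrocyte-like nuclei held 0.151 to 0.322 and were lower than OPC-like nuclei (-1.89 ± 0.28, SE, adjusted p = 2.13e-06). Typed by their own markers, nuclei gave -0.75 for this comparison, which did not pass (adjusted p = 0.0576). Free RNA held 1.07 to 3.35 UMIs of *Grin1* per 10000, above the value of each glial class.

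*Grin2a* encodes GluN2A, which gives NMDA receptors fast closing. Dopaminergic-like neurons held 3.30, 3.25, 2.73 and 2.53 in rats 2 to 5. GABA-like neurons held 1.40, 1.31, 0.962, 1.67 and 1.55 and glutamate-like neurons 1.63, 1.13, 0.891, 1.09 and 1.26 in rats 1 to 5. Each dopaminergic-like value exceeded every value of the other neuron classes, by log2 fold changes of 1.18 ± 0.14 and 1.44 ± 0.16 (SE, adjusted p = 3.12e-06 and 1.81e-06). Neither call ended under any alternative tried.

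Thinned to 1000 UMIs, 21.0% of dopaminergic-like neurons had a *Grin2a* UMI (17.5% to 24.4% over rats), against 10.5% of GABA-like and 11.9% of glutamate-like neurons and 0.314% of oligodendrocyte-like nuclei. Before thinning the shares were 57.7%, 45.3%, 36.5% and 1.31%. OPC-like nuclei held 12 *Grin2a* UMIs in all, or 0.0126 to 0.0611 per 10000, at log2 -5.24 ± 0.28 against neurons (SE, adjusted p = 4.42e-15). Astrocyte-like and oligodendrocyte-like nuclei, with 17 and 132 UMIs, did not differ from OPC-like nuclei by the test (adjusted p = 0.827 and 0.626). At 0.274 to 0.532, free RNA held more *Grin2a* than any glial class.

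*Grin2b* encodes GluN2B, which gives NMDA receptors slow closing and is the form that predominates early in life. Its level was 14.6, 6.62, 13.7 and 12.7 in dopaminergic-like neurons of rats 2 to 5, 10.5, 11.2, 6.46, 12.9 and 11.5 in GABA-like and 14.0, 8.65, 4.46, 10.6 and 8.77 in glutamate-like neurons of rats 1 to 5. Rat 3 was the lowest in each class, and the ranges of the 3 classes overlapped. Dopaminergic-like exceeded glutamate-like neurons by 0.56 ± 0.14 (SE, adjusted p = 0.00728), and GABA-like neurons by 0.32 ± 0.13, which did not pass (adjusted p = 0.0953) except with no filter on low counts (0.31, adjusted p = 0.0286). The first call ended without rat 2 (0.40, adjusted p = 0.162), without rat 5 (0.55, adjusted p = 0.0536) and with principal components centred per library (0.24, adjusted p = 0.521).

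Astrocyte-like nuclei held 5.59, 5.53, 7.52 and 5.68 *Grin2b* UMIs per 10000 in rats 1, 2, 4 and 5. Their range lay above free RNA, at 0.748 to 2.53, and above OPC-like nuclei, at 1.28, 1.43, 1.13 and 0.916. OPC-like nuclei lay far below neurons (log2 fold change -3.19 ± 0.22, SE, adjusted p = 1.06e-12). The log2 fold change of astrocyte-like over OPC-like nuclei was 2.39 ± 0.22 (SE, adjusted p = 4.99e-10). Thinned, 42.8% of astrocyte-like nuclei had a *Grin2b* UMI, against 9.32% of OPC-like and 2.61% of oligodendrocyte-like nuclei (77.9%, 31.2% and 6.93% before thinning). The 6 neuron markers summed to 3.45 to 8.54 UMIs per 10000 in astrocyte-like nuclei, against 12.1 to 16.3 in OPC-like nuclei, and their part in these values was not tested.

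*Grin2c* encodes GluN2C, a subunit with low conductance and weak magnesium block that is known in astrocytes and cerebellar granule cells. Its level in astrocyte-like nuclei was 3.34, 2.85, 2.58 and 2.17 in rats 1, 2, 4 and 5. In every other class it was at most 0.365 in any rat. The log2 fold change over OPC-like nuclei, which held 13 UMIs in all, was 5.95 ± 0.40 (SE, adjusted p = 6.09e-13). Thinned, 24.9% of astrocyte-like nuclei had a *Grin2c* UMI (22.0% to 29.5%), against 0.304% of oligodendrocyte-like nuclei. Before thinning these shares were 65.3% and 0.961%, and the median depth of astrocyte-like nuclei was 3925 UMIs.

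OPC-like nuclei did not differ from neurons by the test in *Grin2c* (adjusted p = 0.307), but were called lower with free RNA subtracted (-2.73, adjusted p = 0.0423). In neurons *Grin2c* was close to the limit of detection, with 33, 113 and 74 UMIs over all dopaminergic-like, GABA-like and glutamate-like neurons. Dopaminergic-like neurons were lower than glutamate-like neurons (log2 fold change -1.23 ± 0.35, SE, adjusted p = 0.0194). Free RNA held 0.0928 to 0.416 *Grin2c* UMIs per 10000, against at most 0.193 in a neuron class of any rat, and the part of free RNA in this difference was not tested. The call ended without rat 5 (-0.99, adjusted p = 0.135) and with doublets kept (-1.01, adjusted p = 0.0538). Some alternatives did not test it, since *Grin2c* did not pass the filter on low counts. These were without rat 2, without rat 4, own markers, free RNA subtracted and thinning. A glutamate-like sub-cluster of 49 nuclei, all of rat 2, held 0.688 *Grin2c* UMIs per 10000, the most of any glutamate-like sub-cluster.

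*Grin2d* encodes GluN2D, the subunit with the slowest closing. It was sparse, with 183, 469 and 242 UMIs in dopaminergic-like, GABA-like and glutamate-like neurons and means of 0.261 ± 0.152, 0.369 ± 0.137 and 0.449 ± 0.280. The ranges overlapped and no comparison between neuron classes passed (adjusted p = 0.456 to 0.939). OPC-like nuclei held 0.188, 0.120, 0.151 and 0.137 in rats 1, 2, 4 and 5, below neurons (log2 fold change -1.46 ± 0.25, SE, adjusted p = 1.61e-05), although in rat 3, which had no OPC-like nuclei, neurons held only 0.116. Astrocyte-like nuclei, with 8 UMIs in all, were lower than OPC-like nuclei (-2.57 ± 0.47, SE, adjusted p = 5.93e-05).

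*Grin3a* encodes GluN3A. OPC-like nuclei held 6.25, 4.50, 4.75 and 4.44 UMIs per 10000 in rats 1, 2, 4 and 5, above every neuron value. Glutamate-like neurons held 2.40, 1.98, 0.780, 2.88 and 3.23, GABA-like neurons 1.61, 1.60, 0.962, 2.11 and 1.81 in rats 1 to 5, and dopaminergic-like neurons 0.794, 0.635, 1.40 and 1.07 in rats 2 to 5. In each of rats 2 to 5 the dopaminergic-like neurons held the least of the neuron classes. OPC-like nuclei exceeded neurons by 1.44 ± 0.17 (SE, adjusted p = 4.52e-08). Thinned, 35.2% of OPC-like nuclei had a *Grin3a* UMI (33.9% to 37.0% over rats), against 0.330% of oligodendrocyte-like nuclei, and 72.3% against 1.08% before thinning.

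Among neurons, *Grin3a* was lower in dopaminergic-like than in GABA-like and glutamate-like neurons, with log2 fold changes of -0.68 ± 0.13 and -1.16 ± 0.13 (SE, adjusted p = 0.000449 and 3.01e-06). The first of these ended when nuclei were typed by their own markers (-0.21, adjusted p = 0.325). GABA-like neurons held less than glutamate-like neurons (-0.48 ± 0.12, SE, adjusted p = 0.0179), although in rat 3 the GABA-like value was the higher, and this call ended without rat 1, rat 4 or rat 5 (-0.44, -0.49 and -0.37, adjusted p = 0.116, 0.0855 and 0.235), with free RNA subtracted (-0.43, adjusted p = 0.110) and after thinning (-0.15, adjusted p = 0.906). Astrocyte-like nuclei, at 0.0943 to 0.488, and oligodendrocyte-like nuclei, at or under 0.0560, lay below OPC-like nuclei, with log2 fold changes of -3.84 ± 0.22 and -6.81 ± 0.23 (SE, adjusted p = 2.44e-14 and 8.18e-20).

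Newly formed oligodendrocyte-like nuclei, of which 248 were found and rats 2, 4 and 5 gave at least 20, held values between those of OPC-like and oligodendrocyte-like nuclei for the subunits that separate these 2 classes most. *Gria4* was at 6.75, 10.4 and 3.71 in the 3 rats, *Gria2* at 4.67, 5.04 and 2.92, *Gria3* at 1.9998, 3.70 and 1.28 and *Grin3a* at 0.730, 0.850 and 0.796. None of these ranges overlapped that of either neighbour. The class entered no test. Of the other subunits, *Gria1*, *Grin1*, *Grin2b* and *Grin2d* were also lower in oligodendrocyte-like than in OPC-like nuclei, with log2 fold changes of -2.46 ± 0.23, -1.80 ± 0.22, -2.23 ± 0.24 and -3.21 ± 0.36 (SE, adjusted p = 4.87e-10, 4.98e-08, 3.56e-09 and 9.39e-09), whereas *Grin2a* and *Grin2c*, at 0.29 ± 0.44 and -0.19 ± 0.65 (SE), did not pass (adjusted p = 0.626 and 0.842). Of these, *Gria1* and *Grin2b* turned to 0.085 and 0.48 when nuclei were typed by their own markers, and *Grin1* came to -0.054, while *Grin2a* was called higher in oligodendrocyte-like nuclei (1.97, adjusted p = 9.65e-05). That typing did not leave out the barcodes that resembled free RNA, and gave 13128 oligodendrocyte-like nuclei in place of 8608. The part of those barcodes in these changes was not tested.

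The mix of subunits was then taken as a share of the AMPA subunit UMIs, or of the Grin2 UMIs, of a class in each rat. A share is compared between classes for 1 subunit, and the differences were taken within rats and tested by flipping their signs in every combination (exact permutation test, two-sided). With 4 rats this exact test cannot go below p = 0.125 and with 5 rats not below p = 0.0625, so no comparison could pass 0.05. Over the 24 comparisons made, no Benjamini-Hochberg adjusted p was below 0.176, and the size and the number of rats that share a direction are given instead.

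*Gria4* made up 31.6%, 35.5%, 35.7% and 37.4% of the AMPA subunit UMIs of dopaminergic-like neurons in rats 2 to 5. In GABA-like neurons it made up 53.8%, 53.9%, 57.2%, 59.8% and 54.3% and in glutamate-like neurons 45.1%, 47.5%, 48.7%, 51.1% and 48.1% in rats 1 to 5. The difference of dopaminergic-like from GABA-like neurons was -21.3 ± 3.10 points, lower in 4 of 4 rats, and from glutamate-like neurons -13.8 ± 2.39 points, also in 4 of 4 (exact permutation p = 0.125 each, the smallest possible). GABA-like exceeded glutamate-like neurons by 7.70 ± 1.27 points in 5 of 5 rats (exact permutation p = 0.0625, the smallest possible).

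The share of *Gria2* went the other way. It was 39.7%, 45.6%, 35.7% and 37.1% in dopaminergic-like neurons of rats 2 to 5 and 28.4%, 24.7%, 28.7%, 23.8% and 26.6% in GABA-like neurons of rats 1 to 5, higher by 13.6 ± 2.94 points in 4 of 4 rats. Against glutamate-like neurons it was higher by 10.9 ± 1.40 points in 4 of 4 rats (exact permutation p = 0.125 each). The level of *Gria2* was not higher, at log2 fold changes of -0.30 and -0.08 against GABA-like and glutamate-like neurons. The share of *Gria3* was higher in dopaminergic-like than in GABA-like neurons by 6.93 ± 2.79 points in 4 of 4 rats, while its level was not (log2 fold change -0.15). Against glutamate-like neurons the *Gria3* share differed by 0.86 ± 2.36 points, higher in 3 of 4 rats (0.0072 to 1.91 leaving out 1 rat). The GABA-like minus glutamate-like difference was -5.72 ± 3.94 points, lower in 5 of 5 rats (exact permutation p = 0.0625, the smallest possible). The share of *Gria1* differed between dopaminergic-like and GABA-like neurons by 0.76 ± 1.30 points, higher in 3 of 4 rats (0.39 to 1.38 leaving out 1 rat). Against glutamate-like neurons the *Gria1* share was higher by 2.05 ± 1.41 points in 4 of 4 rats.

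OPC-like nuclei had a mix near that of GABA-like neurons for *Gria4*, at 58.1% ± 2.24 against 55.8% ± 2.64, and *Gria2*, at 24.1% ± 1.37 against 26.4% ± 2.19. Oligodendrocyte-like nuclei were at 60.6% ± 10.4 for *Gria4* and 31.4% ± 9.26 for *Gria2*. The 3 GABA markers summed to 2.09 to 6.67 UMIs per 10000 in OPC-like nuclei and 6.50 to 9.23 in GABA-like neurons. In the other neuron classes they reached at most 0.85, and their part in this likeness was not tested. OPC-like nuclei differed from GABA-like neurons for *Gria1*, at 0.563% to 1.16% of AMPA subunit UMIs, below its lowest neuron share of 2.38%. They also differed for *Gria3*, at 14.5% to 17.7% against 7.52% to 13.1% in GABA-like neurons. Astrocyte-like nuclei had the highest mean share of *Gria2*, at 44.3%, 52.5%, 53.6% and 54.3% in rats 1, 2, 4 and 5. Their AMPA subunit UMIs numbered 280 to 960 per rat, against 1656 to 5136 in OPC-like nuclei. These glial mixes were not tested.

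**Figure D3:**
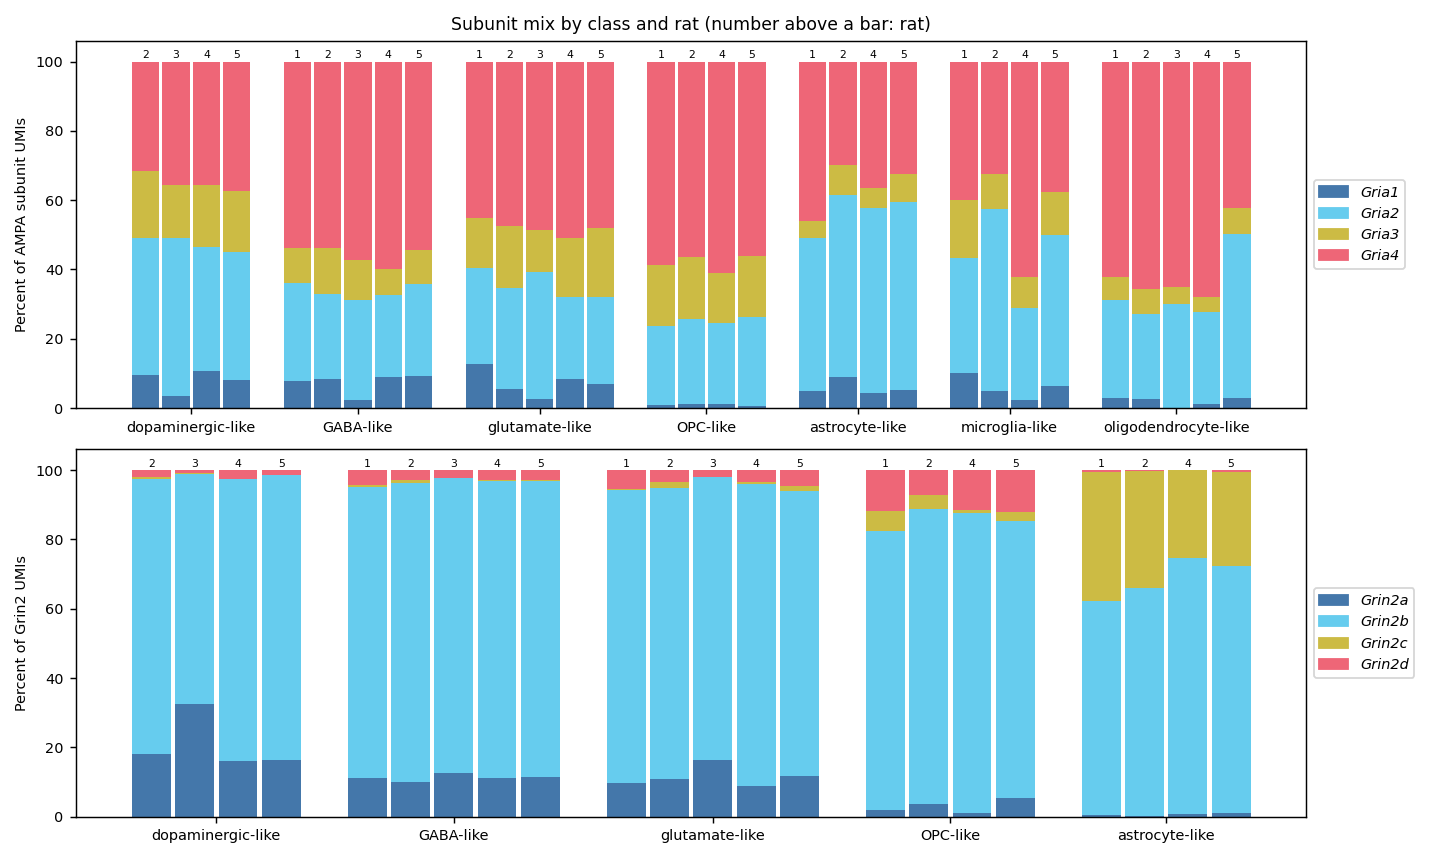
Share of each subunit in the AMPA subunit UMIs (upper panel) and in the Grin2 UMIs (lower panel, without the microglia-like and oligodendrocyte-like nuclei), in percent, with 1 stacked bar per rat in each class and the rat's number above it. *Gria4* takes 31.6% to 37.4% in dopaminergic-like and 53.8% to 59.8% in GABA-like neurons, and *Grin2c* appears as a visible band of 25.4% to 37.0% in astrocyte-like nuclei. Bars of microglia-like nuclei rest on at most 45 AMPA subunit UMIs.

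Among the Grin2 subunits, *Grin2a* made up 18.0%, 32.6%, 16.2% and 16.3% in dopaminergic-like neurons of rats 2 to 5. In GABA-like neurons *Grin2a* made up 10.1% to 12.7% and in glutamate-like neurons 9.01% to 16.3%, the highest being rat 3 with only 49 Grin2 UMIs. The dopaminergic-like share was higher by 9.42 ± 7.14 points than the GABA-like and by 8.73 ± 5.17 points than the glutamate-like share, in 4 of 4 rats each (exact permutation p = 0.125). Rat 3, the highest, moved these differences most, and without it they were 5.92 and 6.21 points. The share of *Grin2b* was lower in dopaminergic-like neurons, with differences of -8.24 ± 7.06 and -6.30 ± 6.44 points, in 4 of 4 rats each, although 1 rat differed from its glutamate-like neurons by only -0.06 points. Without rat 3 these differences were -4.78 and -3.32 points.

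Astrocyte-like nuclei held *Grin2c* as 37.0%, 33.9%, 25.4% and 27.2% of their Grin2 UMIs in rats 1, 2, 4 and 5, against at most 1.86% in a neuron class of any rat. In these nuclei *Grin2b* was at 61.7% to 73.9% and *Grin2a* at 0.212% to 1.15%. OPC-like nuclei, in which the Grin2 UMIs numbered only 51 to 168 per rat, held *Grin2b* at 80% to 86.5% and *Grin2d* at 7.14% to 12%. In neurons *Grin2d* was at 0.741% to 5.32%. The share of *Grin2d* was lower in dopaminergic-like than in GABA-like and glutamate-like neurons, with differences of -0.99 ± 0.52 and -1.74 ± 0.99 points, in 4 of 4 rats each. In rat 3 the glutamate-like value rests on only 49 Grin2 UMIs. The level of *Grin2d* did not differ by edgeR, at log2 fold changes of -0.15 and -0.26 (adjusted p = 0.620 and 0.456).

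The ratio of NMDA to AMPA subunit UMIs was highest among neurons in the dopaminergic-like class of each of rats 2 to 5. On the log2 scale it was -0.41, -0.92, -0.55 and -0.59 in dopaminergic-like neurons of rats 2 to 5, -1.39 to -2.31 in GABA-like and -0.82 to -2.51 in glutamate-like neurons of rats 1 to 5. Within rats, dopaminergic-like neurons were higher than GABA-like neurons by 1.09 ± 0.29 and than glutamate-like neurons by 0.997 ± 0.46, in 4 of 4 rats each (exact permutation p = 0.125). A ratio also rises when its denominator falls. The 4 AMPA subunits had log2 fold changes of -1.57 to -0.15 and -1.05 to -0.08 against these classes. Those of the 6 NMDA subunits went both ways, from -0.68 to 1.18 and from -1.23 to 1.44. The parts of AMPA and NMDA subunits in the difference were not tested. GABA-like and glutamate-like neurons overlapped, with a difference of -0.18 ± 0.27 (exact permutation p = 0.25), lower in 4 of 5 rats and at -0.28 to -0.088 leaving out 1 rat. Astrocyte-like nuclei, at 0.65 to 0.98, lay above every value of the other 6 classes, and OPC-like nuclei were at -2.56 to -3.14. This ratio counts UMIs of RNA in nuclei, with no correction for gene length, so it is compared between classes and its own sign carries no meaning, and it is not a ratio of receptors or currents.

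**Figure D4:**
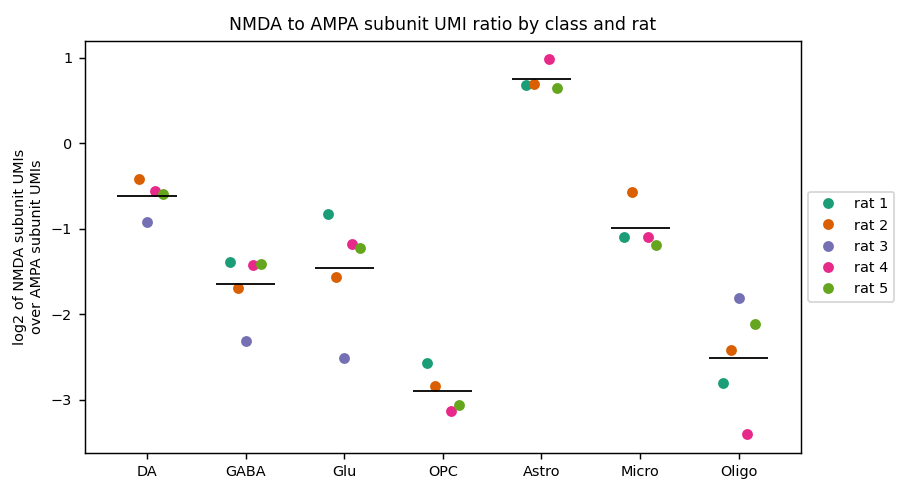
Log2 of the summed UMIs of the 6 NMDA subunits over those of the 4 AMPA subunits (vertical axis) in the 7 classes, 1 point per rat, coloured by rat, and a bar at the mean (DA stands for dopaminergic-like neurons). Astrocyte-like nuclei lie above the other classes, dopaminergic-like neurons lie above GABA-like neurons within each of the 4 rats, and OPC-like nuclei, at -2.56 to -3.14, have the lowest mean.

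Dopaminergic-like neurons were themselves of more than 1 kind. They formed 5 sub-clusters of 81 to 317 nuclei, of which 1 came from rat 3 alone and 3 others had at least 20 nuclei in each of rats 2, 4 and 5. The sub-cluster with *Aldh1a1*, an enzyme of retinoic acid synthesis, first among its leading genes held *Grin2a* as 7.31%, 7.81% and 7.25% of Grin2 UMIs in rats 2, 4 and 5. The one with *Slc6a3*, the dopamine transporter, among its leading genes held 21.5%, 24.3% and 20.8%, and the one led by *Col24a1* and *Vip*, a neuropeptide, 15.4%, 12.4% and 12.6%. The 3 did not overlap, and the *Aldh1a1* sub-cluster lay below the GABA-like neurons of the same rats.

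The AMPA mix also differed among them. *Gria4* made up 25.6%, 31.3% and 27.0% of AMPA subunit UMIs in the *Slc6a3* sub-cluster of rats 2, 4 and 5. In the *Aldh1a1* sub-cluster it made up 39.9%, 39.4% and 48.0%, and in the *Col24a1* and *Vip* sub-cluster 42.7%, 41.3% and 43.7%. The highest of these, 48.0% in rat 5, was below the share in GABA-like neurons of any rat. It lay within the range of the glutamate-like neurons, 45.1% to 51.1%, which were at 48.1% in rat 5. *Grin3a* was at 0.267, 0.797 and 0.251 UMIs per 10000 in the *Aldh1a1* sub-cluster, against 1.06, 1.67 and 1.51 in the *Col24a1* and *Vip* sub-cluster. These are descriptions, without a test, of sub-clusters found in the same nuclei but without the members' counts.

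GABA-like neurons formed 19 sub-clusters, of which 6 came from rat 3 alone. Over the other 13, a split made after seeing the data, *Gria4* ranged from 10.04 to 46.1 UMIs per 10000 (median 28.9), *Gria1* from 1.19 to 13.3 (median 4.17), *Gria3* from 1.34 to 18.1 (median 6.28), *Grin2b* from 7.997 to 19.2 (median 9.33) and *Grin1* from 3.37 to 4.72 (median 3.87). The sub-clusters of rat 3 widened these ranges to 7.64 to 52.3 for *Gria4* and took the low ends to 0.427 for *Gria1*, 1.07 for *Gria3*, 4.03 for *Grin2b* and 1.95 for *Grin1*. Of the 13, those at the low and high ends of *Gria4* came mostly from rat 2 (43 of 54 and 49 of 59 nuclei). So did those of *Gria1* (88 of 103 and 45 of 53) and *Grin2b* (61 of 63 and 43 of 54). In the 7 glutamate-like sub-clusters, 1 of them mostly of rat 3, *Gria4* ranged from 19.4 to 27.2 and *Grin3a* from 0.203 to 4.01. Both ends of that *Grin3a* range were mostly of rat 2 (139 of 147 and 49 of 49 nuclei). Kind of neuron and rat cannot be told apart at these ends. The share of *Gria4* ran from 34.6% to 71.8% in GABA-like, from 42.6% to 58.7% in glutamate-like and from 24.2% to 42.7% in dopaminergic-like sub-clusters. The classes thus overlapped at this finer grain, although both GABA-like ends were mostly of rat 2 (43 of 54 and 85 of 86 nuclei).

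**Figure D5:**
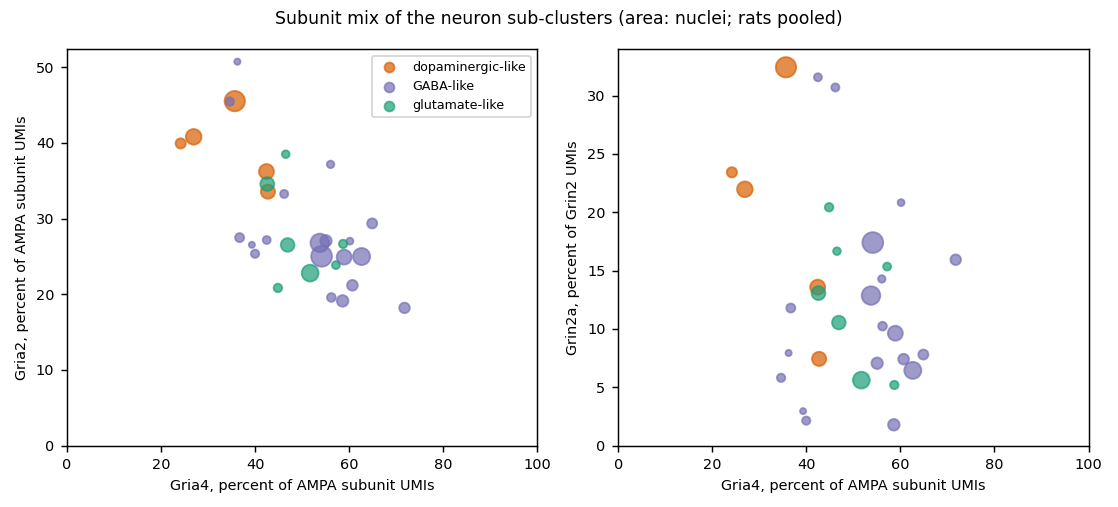
Subunit mix of the neuron sub-clusters, with rats pooled: each circle is 1 sub-cluster, its area the number of nuclei and its colour the class, and the axes are shares in percent. Dopaminergic-like sub-clusters lie at 24.2% to 42.7% for *Gria4* and spread from 7.43% to 32.4% for *Grin2a*, or to 23.4% without the sub-cluster of rat 3.

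Genes that act with these receptors were taken as 4 lists of 52 genes, chosen with earlier results of these data known, of which 50 were in the files (*Shisa9* and *Gsg1l* were not). Their counts stand beside the shares of all genes called in the same comparison, and a count near that share is not a result about a list. The median of all genes was -0.01 to 0.08 on the log2 scale in each of the 6 comparisons. Among AMPA receptor auxiliary and assembly genes, 2 of 13 tested were higher and 2 lower in dopaminergic-like than in GABA-like neurons (21.2% of all genes called), with a median log2 fold change of -0.17. *Frrs1l*, needed for AMPA receptor assembly, was higher by 0.88 ± 0.10 (SE), and *Cacng4*, a transmembrane auxiliary subunit of the TARP family, was lower (-0.71 ± 0.18, SE). The call of *Cacng4* ended without rat 2 (-0.56, adjusted p = 0.0636), with a minimum of 2000 UMIs (-0.53, adjusted p = 0.0602) and without the rat as a block (adjusted p = 0.0768). Against glutamate-like neurons 1 was higher and 1 lower (median 0.00096, 15.7% of all genes called), and between GABA-like and glutamate-like neurons 1 was higher, *Cacng4* by 1.01 ± 0.19 (SE), and 1 lower (median 0.02, 4.47% of all genes called). That lower gene was *Cacng3*, whose call ended on leaving out any of rats 2, 3, 4 and 5 (-0.61 to -0.33, adjusted p = 0.0535 to 0.319), with DESeq2 (-0.51, adjusted p = 0.0968), with a minimum of 2000 UMIs (-0.54, adjusted p = 0.171), with own markers (-0.086, adjusted p = 0.969), with free RNA subtracted (-0.48, adjusted p = 0.114), after thinning (-0.33, adjusted p = 0.648) and without the block (-0.57).

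Among the auxiliary genes tested in OPC-like nuclei against neurons, the 3 with the largest changes were TARPs. *Cacng4* was at 6.81 ± 1.30 UMIs per 10000, against 0.571 to 1.03 as the means of the neuron classes, a log2 fold change of 3.17 ± 0.20 over neurons (SE, adjusted p = 2.09e-13). *Cacng2*, stargazin, and *Cacng3* were lower (-4.02 ± 0.30 and -4.45 ± 0.31, SE). Of the 12 auxiliary genes tested in this comparison 2 were higher and 3 lower (median -0.18), beside 45.2% of all genes called. Astrocyte-like nuclei were higher than OPC-like nuclei in 1 and lower in 7 of these genes (median -1.41, 36.6% of all genes called), and oligodendrocyte-like nuclei higher in 1 and lower in 6 (median -1.003, 48.6% of all genes called), among them *Cacng4* (-6.24 ± 0.24, SE).

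For kainate and delta receptor subunits and their partners, in dopaminergic-like against GABA-like neurons 2 of 9 were higher and 4 lower (median -0.25, 21.2% of all genes called), and against glutamate-like neurons 1 was higher and 5 lower (median -0.60, 15.7%). *Grik3*, a low-affinity kainate receptor subunit, was higher by 2.15 ± 0.14 and 2.003 ± 0.16 (SE, adjusted p = 1.79e-09 and 2.72e-08). *Grik2*, a widely used kainate subunit, was lower (-1.65 ± 0.11 and -1.60 ± 0.12, SE). Between GABA-like and glutamate-like neurons 1 was higher and none lower (median -0.13, 4.47%).

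In OPC-like nuclei 4 of these 9 genes were higher than in neurons and 1 lower (median 0.06), beside 45.2% of all genes called. *Neto1*, an auxiliary subunit of kainate and NMDA receptors, was at 6.72 ± 0.62 UMIs per 10000 in OPC-like nuclei and higher than in neurons by 1.67 ± 0.17 (SE, adjusted p = 2.35e-09). All 9 were lower in astrocyte-like than in OPC-like nuclei (median -1.85, 36.6% of all genes called), among them *Neto1* (-6.29 ± 0.27, SE). In oligodendrocyte-like nuclei 7 were lower and 1 higher (median -1.75, 48.6%).

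Of the 20 scaffold and trafficking genes tested, 4 were higher and 7 lower in dopaminergic-like than in GABA-like neurons (median -0.17, 21.2% of all genes called), and 4 higher and 8 lower than in glutamate-like neurons (median -0.12, 15.7%). *Grip2*, which binds the tails of GluA2 and GluA3, was higher by 2.26 ± 0.14 and 2.10 ± 0.15 (SE, adjusted p = 7.57e-10 and 1.25e-08), and *Dlg1*, the scaffold SAP97 that binds GluA1, by 1.11 ± 0.11 and 0.88 ± 0.11 (SE). *Camk2a*, the kinase of synaptic potentiation, was lower than in GABA-like neurons (-1.23 ± 0.12, SE). GABA-like and glutamate-like neurons differed in 2 higher and 2 lower (median 0.03, 4.47% of all genes called), 4 calls in all, against 1 without rat 2 or rat 5 and 2 without rat 3 or rat 4. In OPC-like nuclei 3 were higher and 12 lower than in neurons (median -0.90, 45.2% of all genes called), among them *Camk2a* (-4.20 ± 0.24, SE) and *Shank3* (-2.35 ± 0.21, SE), and 13 and 15 were lower in astrocyte-like and oligodendrocyte-like than in OPC-like nuclei, with 1 and 3 higher (medians -0.63 and -1.79, 36.6% and 48.6% of all genes called). *Camk2a* was among the 13 (-1.49, adjusted p = 0.0290), but its sign turned with own markers (0.31) and after thinning (0.76).

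The last list held genes of the family of RNA editing enzymes, of which the product of *Adarb1* edits the pore of GluA2, and genes of D-serine, a co-agonist of NMDA receptors. Of the 4 tested, dopaminergic-like neurons were higher in 1, *Adarb2*, by 1.42 ± 0.22 and 1.68 ± 0.23 (SE) against GABA-like and glutamate-like neurons, and lower in 1, *Adarb1*, by log2 fold changes of -0.91 ± 0.12 and -0.95 ± 0.13 (SE, adjusted p = 1.87e-05 and 3.14e-05), with medians of 0.10 and -0.0022 (21.2% and 15.7% of all genes called). *Adarb1* was at 0.98 ± 0.09 UMIs per 10000 in dopaminergic-like, 2.05 ± 0.44 in GABA-like and 2.05 ± 0.46 in glutamate-like neurons. Between GABA-like and glutamate-like neurons edgeR called 0 of 4, with 0 at an unadjusted p under 0.05 (median -0.06, 4.47% of all genes called). In OPC-like nuclei 1 was higher and 3 lower than in neurons (median -0.55, 45.2%), in astrocyte-like nuclei 2 were lower than in OPC-like nuclei (median -0.23, 36.6%), and in oligodendrocyte-like nuclei 2 were higher and 1 lower (median 0.34, 48.6%).

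For each member the most similar gene among 13466 was found by Pearson's r of log2 CPM over the 31 sums of 7 classes, centred per rat. These points share libraries and classes, and the values are descriptions. The closest gene was *Sptan1* for *Gria1* (r = 0.976), *Kcnma1* for *Gria2* (0.972), *Brinp1* for both *Gria3* (0.979) and *Grin3a* (0.979), and *Prmt8* for *Gria4* (0.978). It was *MAST1* for *Grin1* (0.976), *Zfhx4* for *Grin2a* (0.981), *Sybu* for *Grin2b* (0.966), *Ahcyl1* for *Grin2c* (0.951) and *Ralyl* for *Grin2d* (0.958). *Gria3* and *Gria2* came next for *Grin3a*, at 0.965 and 0.946, the only member whose 3 closest genes included other members.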

How the data were processed

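Single-nucleus RNA-seq was done on frozen VTA tissue of 5 rats, 1 library per rat, with 10x 3' v3.1 chemistry. The deposited matrices hold whole-number UMI counts per gene and barcode, which the authors made with Cell Ranger 8.0.1 per the labels, while the matrix headers name version 4. The genome build and whether intronic reads were counted are not given in the sources used here. The matrices were not filtered, and the study's later removal of free RNA is not in them. No column of per-sample values was left unused (0).

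Barcodes with at least 1000 UMIs, over 200 and under 5000 genes and under 5% mitochondrial UMIs were kept, and 1068 doublets marked by a caller were left out. Nuclei were clustered on 30 principal components (scanpy 1.11.5, leidenalg 0.10.2, resolution 2.0 for neurons) without the glutamate receptor genes, and named from marker lists. Counts were summed per rat and class where a rat had at least 20 nuclei. Sums were tested with edgeR 4.0.16 (R 4.3.3, quasi-likelihood, TMM factors, the rat as a block, Benjamini-Hochberg adjustment over all genes tested), with 2 fits, 1 for the neuron classes and 1 for neurons and glia. Classes of a rat come from the same animal. Their deviations correlated at 0.259 to 0.764 over 13 pairs in the first fit and at 0.0683 to 0.702 over 41 pairs in the second. Shares were compared with exact sign-flip permutation tests (numpy 2.4.6). Alternatives were DESeq2 1.42.0, other size factors, no filter on low counts, no block, a minimum of 2000 UMIs, doublets kept, other class definitions, free RNA subtracted, nuclei thinned to 1000 UMIs and each rat left out.

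All 10 members are named, and the genes named from a pathway list are taken from the up to 4 with the largest changes past the threshold in a comparison. The values of 1 gene of these lists are not reported here. The members and lists were chosen with earlier results of these data known. Library totals limit the sparse members. With the rat as a block, the edgeR p-values measure how far the differences between classes vary from rat to rat. All classes of a fit share an estimate of this spread.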

Additional observations from a re-analysis of the deposited data

Results flagged for a closer look

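In groups of 4 or 5 rats, a value was picked out where its gap to the nearest rat was large against the whole range of the group, by Dixon's test at its 95% limit. This held for 15 of 126 groups checked, and chance alone gives about 1 in 20. The groups are not independent, since the shares of a class add up to a whole. The part of depth or free RNA in these values was not tested.

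Rat 3 supplied 5 of them. Its level of *Gria2* in oligodendrocyte-like nuclei was 0.654 UMIs per 10000 (nearest rat 1.03) and its *Grin2b* there was 0.585 (nearest 0.248). Rat 3 held only 63 AMPA subunit and 18 Grin2 UMIs in these nuclei, so the counting error of both values is large. In its GABA-like neurons *Gria1* made up 2.38% of AMPA subunit UMIs (nearest 7.73%), and in its dopaminergic-like neurons *Grin2a* made up 32.6% of Grin2 UMIs (nearest 18.0%) and *Grin2b* 66.4% (nearest 79.6%). In oligodendrocyte-like nuclei of rat 5, *Gria2* made up 47.5% (nearest 30.2%) and *Gria4* 42.4% (nearest 62.3%) of AMPA subunit UMIs.

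In rat 4, *Grin2b* was at 7.52 UMIs per 10000 in astrocyte-like nuclei (nearest 5.68), the log2 ratio of NMDA to AMPA subunit UMIs in these nuclei was 0.98 (nearest 0.69), and *Gria3* made up 14.5% of AMPA subunit UMIs in OPC-like nuclei (nearest 17.5%). In rat 1, *Grin3a* was at 6.25 in OPC-like (nearest 4.75) and 0.182 in microglia-like nuclei (nearest 0.0656), and *Grin2d* made up 4.35% of Grin2 UMIs in GABA-like neurons (nearest 2.78%). Microglia-like nuclei of all rats held only 5 *Grin3a* UMIs, so the counting error of that value is large. In rat 2, *Grin2d* made up 7.14% of Grin2 UMIs in OPC-like nuclei (nearest 11.5%), and the log2 ratio in microglia-like nuclei was -0.57 (nearest -1.10).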

How the results depend on the processing

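Of the 36 calls of members, all were kept with DESeq2, with other size factors or UMI totals, without a filter on low counts and without rat 3. When nuclei were typed by their own markers 28 were kept, after thinning 29 and without rat 5 only 30. The calls not kept no longer passed, turned or were not tested. Without the replicate block 28 were kept, and the numbers of members called fell from 5 to 2 for dopaminergic-like against GABA-like neurons, from 6 to 3 against glutamate-like neurons and from 2 to 0 between GABA-like and glutamate-like neurons (1 at an unadjusted p under 0.05, and 2 by DESeq2 with the block). The shares of all genes called fell with them, from 21.2% to 7.32%, from 15.7% to 5.23% and from 4.47% to 0.663%. A minimum of 2000 UMIs gave 3 for the first comparison (16.8% of all genes called) and free RNA subtracted gave 1 for the last (3.60%). Leaving out 1 rat gave 3 to 5, 3 to 7, 1 to 2, 7 to 7, 8 to 9 and 8 to 8 in the order of the 6 comparisons, with the lowest counts of the first 3 without rat 5, of the second also without rat 2 and of the third also without rat 4. The shares of all genes called then ran, in the same order, at 15.5% to 20.3%, 11.4% to 15.1%, 3.09% to 4.22%, 36.5% to 46.2%, 30.2% to 37.6% and 40.6% to 49.8%. For each of these changes the cause was not tested.

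Typed by their own markers, 2 called members turned in oligodendrocyte-like against OPC-like nuclei, *Gria1* to 0.085 and *Grin2b* to 0.48, and *Grin1* came to -0.054 (adjusted p = 0.903). That typing did not leave out the barcodes that resembled free RNA, whose part was not tested. Among values that had not passed, the sign turned for *Gria3* (0.084, 2000 UMIs) and *Grin2d* (-0.36 to 0.027 leaving out 1 rat) against GABA-like neurons. Against glutamate-like neurons it turned for *Gria1* (0.0042 with 2000 UMIs, 0.088 thinned) and *Gria2* (0.10 with 2000 UMIs, -0.23 to 0.045 leaving out 1 rat). Between GABA-like and glutamate-like neurons it turned for *Grin1* (-0.056, own markers), *Grin2a* (-0.14, thinned) and *Grin2d* (-0.17 to 0.0058 leaving out 1 rat). In OPC-like nuclei against neurons *Gria2* turned to -0.00086 with UMI totals, -0.067 without a filter, -0.091 with doublets, -0.061 thinned and -0.031 to 0.11 leaving out 1 rat. *Grin2a* turned in astrocyte-like against OPC-like nuclei (-0.49 thinned, -0.29 to 1.20 leaving out 1 rat) and in oligodendrocyte-like against OPC-like nuclei (-0.61 with doublets, -3.11 free RNA subtracted, -0.36 thinned), where *Grin2c* turned too (0.22 with 2000 UMIs, 0.66 own markers, -0.76 to 0.13 leaving out 1 rat). Of the called genes of the lists, *Camk2a* in astrocyte-like against OPC-like nuclei (-1.49) turned to 0.31 with own markers and 0.76 thinned.

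For shares between GABA-like and glutamate-like neurons, *Gria1* turned to -0.395 points with doublets (-0.625 to 1.29 leaving out 1 rat), *Grin2a* to 1.89 with own markers and 1.46 centred per library (-0.888 to 0.554), and *Grin2b* to -0.131 and -0.246 (0.971 to 2.09). A correction for gene length or span was not run, since the sources do not name the build. Few UMIs were counted for *Grin2c* in neurons (33 to 113 per class) and for *Grin2a* in OPC-like and astrocyte-like nuclei (12 and 17), so the counting error of these values is large.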
